A study of Homo sapiens with 2 samples.

Results

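The genes that encode the subunits of NF-kB and its feedback regulators were examined for binding of the repressor GFI1, a zinc-finger protein of blood cells, in NB4 cells. The 9 genes were NFKB1, NFKB2, REL, RELA, RELB, NFKBIA, NFKBIZ, TNFAIP3 and BCL3. A peak was assigned to a gene when its midpoint lay inside the gene span on hg38 or within 50 kb of it. By this rule 5 of 7687 peaks of one library and 5 of 7562 peaks of the other belonged to the 9 genes, out of 20033 protein-coding genes in the RefSeq table used.

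NB4 is an established line of acute promyelocytic leukemia that carries the PML-RARA fusion, and no treatment other than formaldehyde fixation is labelled. Chromatin was precipitated with the antibodies ab21061 and sc8558, whose labels name GFI1, in 1 library each, so all values describe these 2 libraries and no p-value was computed. The labels conflict in places, since the immunoprecipitation protocol names PML/RARα and the sc8558 title reads GFI2. The antibody labels were followed. Peak lists hold no expression, so neither the cell type nor the activity of any gene could be checked. The depth of the libraries is unknown, and a control library was not used here.

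NF-kB is a family of dimeric transcription factors that is held in the cytoplasm by inhibitory IkB proteins and released when receptors for cytokines or microbial products activate the IkB kinases. REL, RELA and RELB carry activation domains, whereas NFKB1 and NFKB2 encode precursors that are processed to p50 and p52. NF-kB induces several of its own regulators, among them IkBα and A20, which end the response, and in myeloid cells it drives inflammatory genes.

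Start sites and the bases before them were taken from RefSeq on GRCh38.p14, which gave 13 start sites for 8 of the 9 genes and no entry for RELB. The sequences shown are those of the 3 genes whose start sites and peaks the comparison turns on. For NFKB1, 1 of the 2 start sites lay inside the peaks and the other just outside. For REL and NFKBIA, the peaks lay elsewhere in or beside the gene. Each line gives the 120 bases before a start site, 5′ to 3′ on the strand of the gene, with matches to AATC (GATT on the other strand), the core of the GFI1 motif, and to the NF-kB consensus in capitals. The lines cover chr4:102501814-102501933 (plus strand) for the NFKB1 start inside the peaks, chr4:102501239-102501358 (plus strand) for the other NFKB1 start, chr2:60881454-60881573 (plus strand) for REL and chr14:35404750-35404869 (minus strand) for NFKBIA.
NFKB1, start inside the peaks: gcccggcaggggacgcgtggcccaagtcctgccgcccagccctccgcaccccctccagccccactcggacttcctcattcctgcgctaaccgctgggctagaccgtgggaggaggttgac
NFKB1, start outside the peaks: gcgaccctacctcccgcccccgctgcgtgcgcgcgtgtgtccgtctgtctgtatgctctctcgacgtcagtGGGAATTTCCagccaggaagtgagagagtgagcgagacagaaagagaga
REL: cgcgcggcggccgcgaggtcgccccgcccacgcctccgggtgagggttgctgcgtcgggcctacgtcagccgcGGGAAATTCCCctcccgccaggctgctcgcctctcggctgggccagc
NFKBIA: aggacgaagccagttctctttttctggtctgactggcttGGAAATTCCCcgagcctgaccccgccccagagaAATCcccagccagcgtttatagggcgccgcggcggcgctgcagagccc

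At least 1 peak was listed for 4 of the 9 genes with ab21061 (NFKB1, REL, NFKBIZ and TNFAIP3) and for 5 with sc8558 (the same 4 genes and NFKBIA). These were shares of 44.4% and 55.6%, against 31.7% and 32.4% of all protein-coding genes under the same rule. A region shared by both antibodies, in which peaks of the 2 lists overlapped by at least 1 bp, was present at 4 of the 9 genes, against 24.3% of all protein-coding genes. NFKB2, RELA, RELB and BCL3 had no peak of either list in the window, a state that held for 61.7% of all protein-coding genes. No test was made of these shares, and the list is short and was chosen with earlier results of these data known. Restricted to the 15079 genes whose spans lay between those of the shortest and the longest of the 9 genes, the background was 30.3% for ab21061, 30.9% for sc8558 and 23.1% for shared regions.

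**Figure D1:**
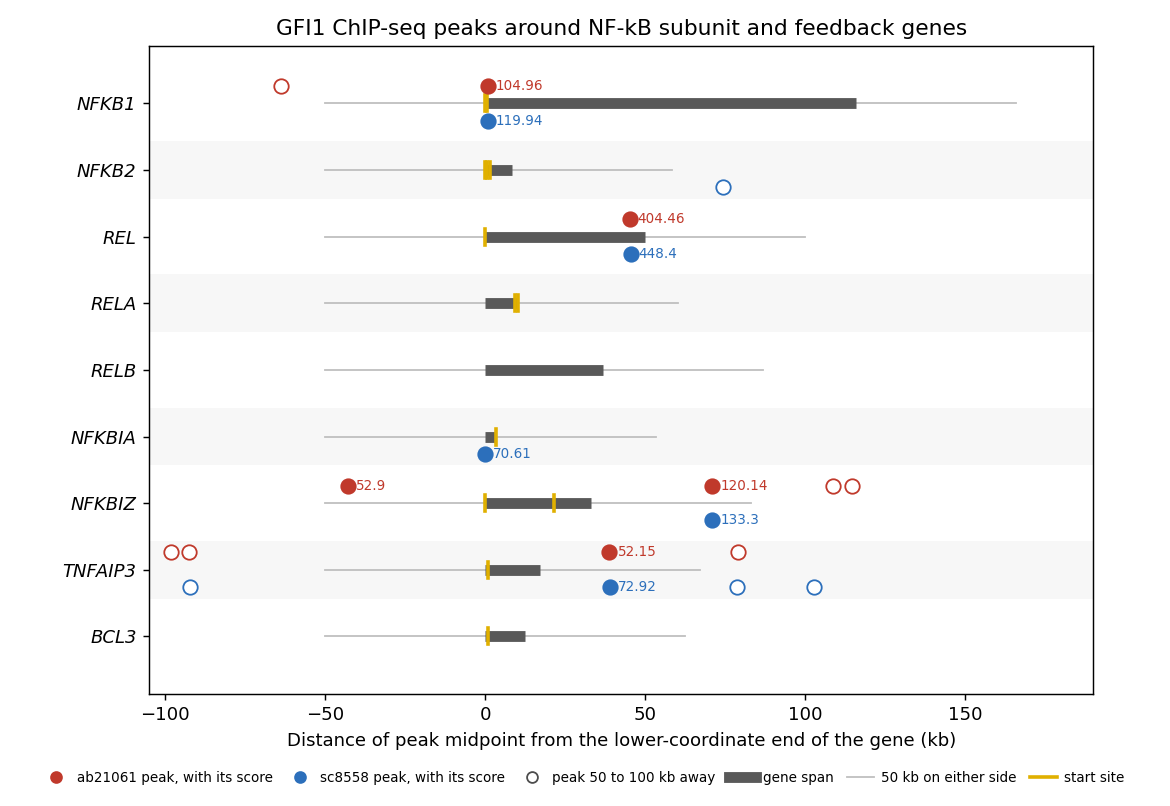
Peaks around each gene, with the distance of the peak midpoint from the lower-coordinate end of the gene in kb on the x axis. Filled points are peaks inside the gene or within 50 kb, labelled with the authors' score, open points lie 50 to 100 kb away, thick bars are gene spans and yellow ticks are start sites. NFKB1, REL, NFKBIZ and TNFAIP3 carry peaks of both antibodies at nearly the same place, and RELA, RELB and BCL3 carry none.

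Among the subunit genes, REL held the region with the highest scores. REL encodes c-Rel, a subunit abundant in blood cells, and lies on chromosome 2 from 60881574 to 60931612. The ab21061 peak from 60925778 to 60927657 scored 404.46 and the sc8558 peak from 60926257 to 60927837 scored 448.4. The score was given by the authors' peak caller and ranks peaks within a list. These were ranks 314 and 246, with scores at or above those of 95.9% of ab21061 and 96.8% of sc8558 peaks. The 2 peaks shared 1401 bp, and their midpoints were 329.5 bp apart.

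The REL region lay far from the start of the gene. Its midpoints were 45.1 kb (ab21061) and 45.5 kb (sc8558) downstream of the start site shown above and 4.89 and 4.57 kb before the other end, inside the span. Exons were not annotated in the sources used here, so exon and intron could not be told apart. The same region fell within 50 kb of PUS10, so the distance rule assigned it to 2 protein-coding genes. By the lower score of the pair, which takes the smaller of scores from lists not calibrated to each other, REL ranked 399 among the 4870 protein-coding genes with a shared region in their window.

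NFKB1, which encodes p105 and its product p50, was the only gene of the 9 with a start site inside peaks of both lists. This held for 1.38% of the 15842 protein-coding genes with start sites in the RefSeq table. NFKB1 spans 115.9 kb on chromosome 4 from 102501359 to 102617302. The ab21061 peak from 102501663 to 102502647 scored 104.96 and lay wholly inside the sc8558 peak from 102501584 to 102502660, which scored 119.94. Both scores stood above the medians of their lists, which were 82.4 and 81.7.

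The start site at 102501934 fell within both NFKB1 peaks, as did all 250 bases searched before it. The upstream start site at 102501359 was 0.304 kb outside the ab21061 peak and 0.225 kb outside the sc8558 peak. Both peaks also covered the start site, at 102502486 on the minus strand, of NFKB1-AS1, a noncoding RNA transcribed in the opposite direction. The peaks alone therefore do not assign the region to either transcript.

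The other 3 subunit genes had no peak in their windows. NFKB2, which encodes p100 and its product p52, lies on chromosome 10 from 102394110 to 102402529. Its nearest peaks were 273.9 kb away with ab21061 and 65.9 kb away with sc8558. RELA encodes p65, the main activating subunit of the canonical pathway, and lies on chromosome 11 from 65653601 to 65663857. Its nearest peaks were 146.2 kb (ab21061) and 145.8 kb (sc8558) away.

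RELB, the activating partner of p52, and BCL3, a nuclear IkB protein, lay in the same stretch without peaks on chromosome 19. RELB spans 45001464 to 45038192, and its nearest peaks were 753 kb away in both lists. BCL3 spans 44747705 to 44760044, and its nearest peaks were 979 kb away in both lists. The stretch ran for 2022 kb from the end of an sc8558 peak at 43768891, which scored 57.2, to the start of another at 45790779, which scored 210.37. It held 66 protein-coding genes and ranked 6 by length among the 343 stretches between peaks on chromosome 19, where the median was 17.7 kb. The 2 genes thus shared a neighbourhood without peaks that reached well beyond their windows.

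**Figure D2:**
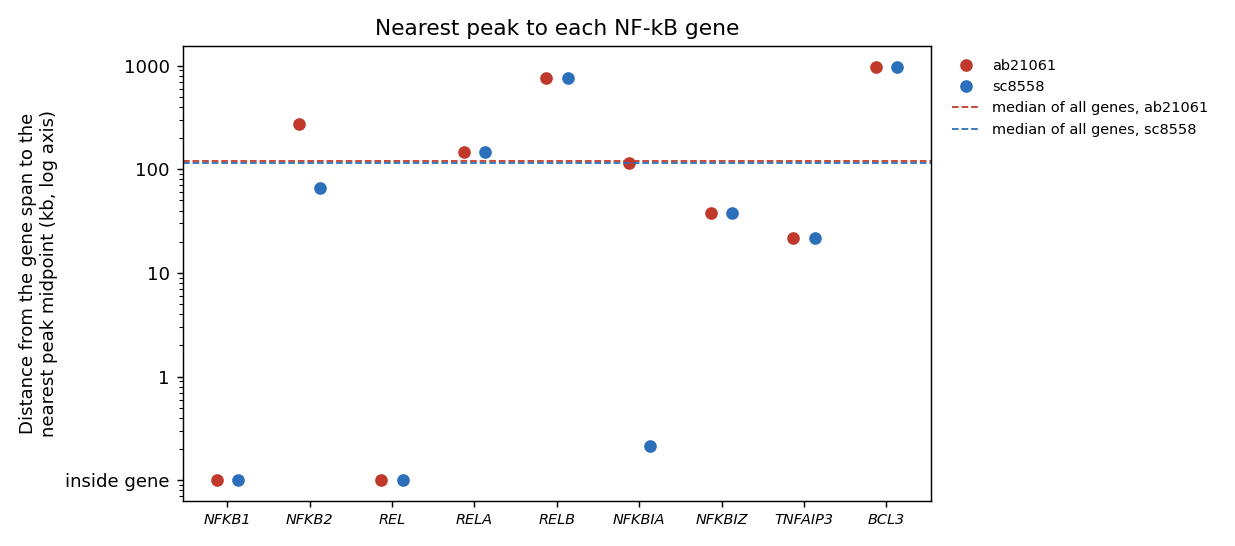
Distance in kb, on a log axis, from each gene span to the midpoint of the nearest peak of ab21061 (red) and sc8558 (blue), with points at the bottom for midpoints inside the gene. Dashed lines are the medians over all 20033 protein-coding genes, 119.7 kb for ab21061 and 115.9 kb for sc8558. NFKB1 and REL lie at the bottom, and RELA, RELB and BCL3 lie above both lines.

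The feedback genes NFKBIA and TNFAIP3 differed in where their peaks lay and in how many antibodies found them. NFKBIA encodes IkBα, which binds NF-kB dimers and returns them to the cytoplasm, and spans 3.24 kb on chromosome 14 from 35401513 to 35404749. It had no ab21061 peak within 50 kb, the nearest being 115.8 kb away. It had 1 sc8558 peak, from 35400891 to 35401707, with a score of 70.61 at rank 4671. This peak sat at the far end of the gene from its start, 3.45 kb downstream of the start site, and covered the last 195 bp of the span.

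The NFKBIA peak was thus found with a single antibody and scored below the median of its list. Among all sc8558 peaks, 65.0% were overlapped by an ab21061 peak. With 1 library each, no difference between the antibodies was tested at this gene.

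TNFAIP3 encodes A20, an enzyme that edits ubiquitin chains and shuts off signalling to the IkB kinases. It lies on chromosome 6 from 137866349 to 137883312. A shared region lay downstream of it, where the ab21061 peak from 137904783 to 137905553 scored 52.15 and the sc8558 peak from 137904926 to 137905524 scored 72.92. The midpoints were 21.9 kb beyond the end of the gene in both lists, and no other protein-coding gene lay within 50 kb of them. The ab21061 score was low in its list, where 6.48% of peaks scored as low or lower. For the sc8558 score this share was 41.5%, so it stood below the median of its list but not near the bottom.

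Around TNFAIP3 further peaks fell outside the window. A shared pair 92.4 kb upstream of the gene span scored 88.89 with ab21061 and 158.49 with sc8558, higher than the pair inside the window. Another shared pair, 61.9 kb (ab21061) and 61.8 kb (sc8558) downstream, scored 54.19 and 59.42 and covered the start site of LINC02865, a noncoding RNA gene. This second pair was the nearest to the 50 kb limit on its outer side, and the nearest on the inner side was the NFKBIZ peak 42.9 kb away that is described next.

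NFKBIZ encodes IkBζ, a nuclear IkB protein that acts with NF-kB at a subset of inflammatory genes, and lies on chromosome 3 from 101827990 to 101861022. A shared region lay 37.9 kb beyond its end, where the ab21061 peak from 101898460 to 101899346 scored 120.14 and the sc8558 peak from 101898597 to 101899198 scored 133.3. The sc8558 peak was contained in the ab21061 peak, and their midpoints were 5.5 bp apart. No other protein-coding gene had this region in its window. A second ab21061 peak, from 101784850 to 101785396, scored 52.9 and lay inside the neighbouring gene NXPE3, 97.4 kb from the nearest sc8558 peak. That peak also fell in the windows of CEP97 and NXPE3. Its link to NFKBIZ, like that of every peak here to its gene, rests on position alone.

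**Figure D3:**
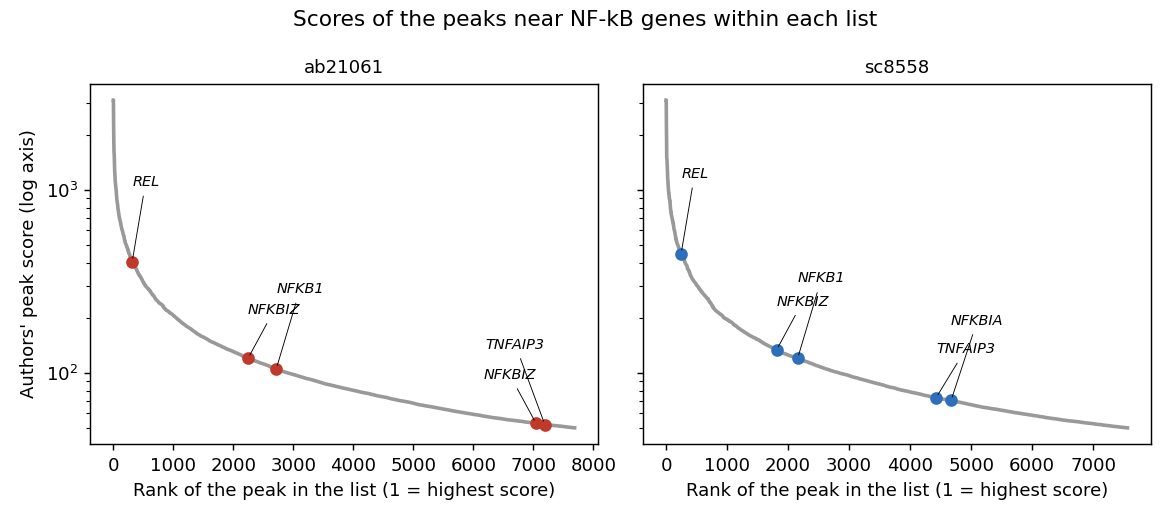
Authors' peak score on a log axis against the rank of the peak in its list (grey curve, all 7687 ab21061 and 7562 sc8558 peaks), with the 5 peaks of each list near the 9 genes as points. The REL peaks stand at ranks 314 and 246, and the TNFAIP3 peaks at 7190 and 4424.

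Of the 5 peaks near the genes in each list, 4 (80%) were overlapped by a peak of the other antibody. These were the same 4 pairs, at NFKB1, REL, NFKBIZ and TNFAIP3, counted from either list, so the shares are not independent results. The exact Clopper-Pearson 95% interval was 28.4 to 99.5%. It covers counting error only and treats the 5 peaks as independent. The remaining peaks of the lists were overlapped in 63.7% (ab21061) and 65.0% (sc8558) of cases. Both values lie inside this interval, which with 5 peaks is too wide to tell such shares apart, and the difference was not tested. Median scores near the genes were 104.96 with ab21061 and 119.94 with sc8558, against 82.3 and 81.7 for the remaining peaks. In each list 3 of the 5 peaks scored 100 or more, against 37.7% of all ab21061 and 37.4% of all sc8558 peaks. Peak density was 4.21 per Mb in the windows of the 9 genes in both lists, against 2.86 per Mb in the windows of all protein-coding genes in both.

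The shared regions differed in their setting. The NFKB1 region lay at a start site and the REL region inside the gene near its far end, whereas the NFKBIZ and TNFAIP3 regions lay downstream of their genes and outside any protein-coding gene. None of the 9 genes had 4 or more shared ab21061 peaks in its window, as 0.634% of all protein-coding genes did. With the midpoint inside the span, 2 of the 9 genes had a shared region, against 8.36% of all protein-coding genes. With scores of at least 100 in both lists, 3 genes did within 50 kb (NFKB1, REL and NFKBIZ), against 12.6%.

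**Figure D4:**
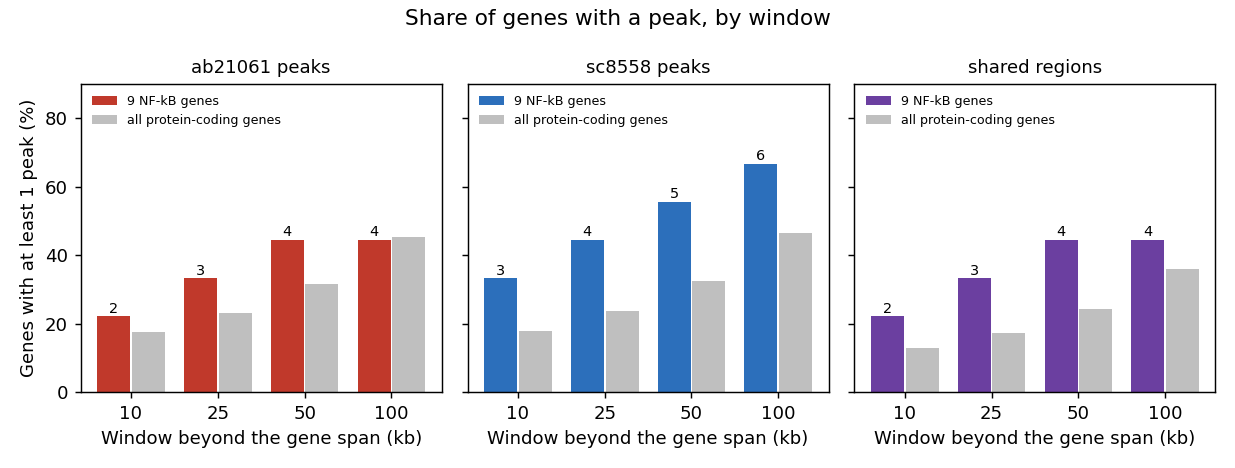
Share of genes, in percent, with at least 1 ab21061 peak, 1 sc8558 peak or 1 shared region inside the span or within 10, 25, 50 or 100 kb, for the 9 NF-kB genes (coloured, with their number) and for all 20033 protein-coding genes (grey). Shared regions reached 4 genes at 50 kb and no further gene at 100 kb, where the grey bar stands at 35.9%.

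The NF-kB consensus, a motif of 10 bases with variable positions, was searched on both strands in the 250 bases before each start site. It matched in 8 of the 13 windows, from NFKB1, NFKB2, REL, NFKBIA, NFKBIZ and TNFAIP3, and in 5.20% of 34943 windows of all genes in the table. In NFKB1 the match lay before the upstream start site, outside the peaks, and no match was found in the window inside the peaks. The AATC core matched in 7 of the 13 windows, against 64.8% of all windows, and its longer form AATCAC, which contains it, in 0 of 13, against 9.02%. AATC matches can overlap the NF-kB consensus, as in TNFAIP3. A match of letters is not a measured site, and the peak regions themselves, other than the NFKB1 window, were not searched.

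Other genes of the pathway were taken from a list of 78 in 7 roles, and all 78 were found in the gene table. At least 1 peak within 50 kb was present at 37 genes with ab21061 (47.4%) and at 35 with sc8558 (44.9%), against the 31.7% and 32.4% of all protein-coding genes given above. A shared region was present at 30 genes (38.5%), against 24.3%, and 32 distinct ab21061 peaks lay behind them. The list was chosen with earlier results of these data known, and the difference from the background was not tested.

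By role the counts were as follows. Ligand genes had a shared region in 7 of 8 cases, but from 5 distinct ab21061 peaks, because TNF, LTA and LTB lie side by side, as do IL1A and IL1B. Receptor genes had one in 2 of 9 cases (TLR2 and TNFRSF1B), a share of 22.2% that is near the background. Adaptors, counted with the kinases next to the receptors such as IRAK1, had 6 of 15. The downstream kinases, counted with partner subunits such as TAB2, had 4 of 10. There were 5 of 13 (38.5%) for negative regulators and 6 of 20 (30%) for target genes. None of the 3 other IkB genes (NFKBIB, NFKBIE and NFKBID) had a peak of either list within 50 kb, as held for 61.7% of all protein-coding genes. The shares were not tested, and the groups are small.

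**Figure D5:**
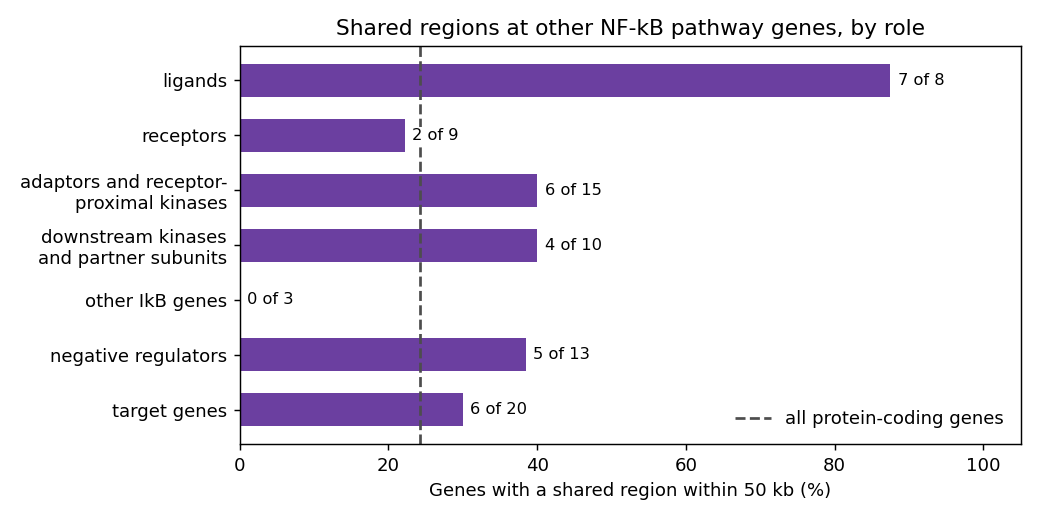
Share of pathway genes, in percent, with a shared region inside the span or within 50 kb, by role, with the counts beside the bars. The dashed line is the share of all protein-coding genes, 24.3%. A shared region was present at 7 of 8 ligand genes, from 5 distinct ab21061 peaks, and at 0 of 3 other IkB genes.

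The pathway genes with a high lower score of a shared pair included TNF, LTA, LTB, TAB2, IRAK2, TAX1BP1 and MAP3K7. TNF, LTA and LTB, which encode cytokines that activate NF-kB, shared 1 region with scores of 867.63 with ab21061 and 728.43 with sc8558. Its ab21061 peak ran from 31558699 to 31561053 on chromosome 6, with the midpoint 0.734 kb from the LTA span, 15.7 kb from TNF and 20.7 kb from LTB.

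TAB2 and MAP3K7 held their regions inside the span. The pair in TAB2, an adaptor of the kinase TAK1, scored 654.92 with ab21061 and 618.4 with sc8558. The pair in MAP3K7, which encodes TAK1 itself, scored 837.67 and 435.45. The pair nearest to IRAK2, a kinase-like adaptor of interleukin and Toll-like receptors, scored 607.84 and 542.88 but lay inside VHL, 18.9 kb away. The pair of TAX1BP1, a partner of A20, scored 593.61 and 530.07 at 40.9 kb from the gene. All 7 genes had regions that scored higher in both lists than the regions of NFKB1, NFKBIZ and TNFAIP3. The 7 genes were named for their high lower scores, so this follows from the choice and does not describe the pathway as a whole. Among the pathway genes with a shared region, the lower score of the pair fell as low as 55.23. For MAP3K7 the sc8558 score lay below the 448.4 of REL, and for the other 6 both scores lay above those of REL.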

How the data were processed

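Peaks were deposited by the authors as 1 list per library, with Bowtie2 2.2.9, MACS 1.4.2 and hg38 named in the submitters' processing notes. The sources used here give neither tool options nor read filters nor any control. The deposited peak score comes from the caller and, in MACS, grows with the negative logarithm of the peak's p-value. It described and ranked peaks within a list, and genes were ranked by the lower score of a shared pair, although score levels are not calibrated between the libraries. Start positions were taken as counted from 0 and are printed from 1.

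Genes, start sites and sequences came from RefSeq (GRCh38.p14), without exons. Overlap was counted from 1 bp, and counting was done in Python 3.11.15 with pandas 2.3.3 and numpy 2.4.6, intervals in scipy 1.17.1 and plots in matplotlib 3.10.9. On simulated peaks, window counts for 200 genes were checked against direct counts, and 200 were equal. The genes named are the 9 members and, by rule, the 8 pathway genes with the best lower score, of which 1 is not reported here. Other genes hold or neighbour a peak, or belong to a role whose members are listed in a count. MAP3K14 is an exception, since it was chosen after its values were seen. Members and lists were chosen with earlier results of these data known. The 2 libraries without replicates give no profile, so no genes were ranked by likeness.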

Additional observations from a re-analysis of the deposited data

How the results depend on the processing

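No paired analysis was possible because each antibody had 1 library, and none could be left out. Any overlap of the peak with the window in place of the midpoint, and overlap of 50% of both peaks, left every count of members and of their peaks unchanged, with 28 pathway genes in place of 30 under the second. With peaks under a score of 100 left out of both lists, 3 members had an sc8558 peak (background 16.5%), and 3 peaks of each list lay near members. Of these 100% were overlapped in both lists, against 70.2% of the remaining ab21061 and 72.1% of the remaining sc8558 peaks, and 19 pathway genes had a shared region (background 12.6%). Within 10 kb, 2 members had an ab21061 peak (22.2%, background 17.4%), 3 an sc8558 peak (33.3%, background 17.8%) and 2 a shared region (22.2%, background 12.8%), from 2 ab21061 and 3 sc8558 peaks. There 100% of the ab21061 and 66.7% of the sc8558 peaks were overlapped, against 63.7% and 65.0% of the remaining peaks. Within the same distance 15 pathway genes had a shared region (background 12.8%). Within 25 kb, 3 members had an ab21061 peak (background 23.1%), 4 an sc8558 peak (background 23.7%) and 3 a shared region (background 17.4%). The 3 ab21061 peaks there were overlapped in 100% of cases, against 63.7% of the remaining peaks. The 4 sc8558 peaks were overlapped in 75%, against 65.0%. Within 100 kb there were 11 ab21061 and 9 sc8558 peaks. There the members with an ab21061 peak, 4 of 9 (44.4%), fell below the background of 45.3%, while those with an sc8558 peak, 6 of 9 (66.7%), stayed above that of 46.4%. The share of ab21061 peaks near members that were overlapped turned from above to below that of the remaining peaks, 54.5% against 63.7%. For sc8558 peaks the shares were 66.7% against 65.0%. Fewer peaks or shorter windows lower these counts by construction. In each setting the overlapped peaks near members were the same pairs counted from either list, so their shares are not independent between the lists. Unknown depth limits any reading of a peak found with a single antibody.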

Other observations

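MAP3K14, which encodes the kinase that starts the noncanonical pathway by driving the processing of NFKB2, was chosen after its values were seen. It had 5 peaks of ab21061 and 5 of sc8558 within 50 kb, and 4 of each list were shared. At least 4 shared ab21061 peaks were present at 0.634% of protein-coding genes. Inside the gene, on chromosome 17, the ab21061 peaks scored 81.99, 124.16 and 340.45 and the sc8558 peaks at the same places 122.21, 76.18 and 391.4. The order of the lower 2 differed between the antibodies, and the third was the highest in both. The remaining shared pair, inside the neighbouring gene FMNL1, scored 214.85 and 295.94 at 33.8 and 33.7 kb from MAP3K14. NFKB2 itself had no peak of either list in its window.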
